A study of Homo sapiens with 9 samples.

Results

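The genes described here are 42 genes of the centromere, the kinetochore and the spindle checkpoint, followed in MDA-MB-231 cells treated with vehicle (DMSO), rimonabant or TXX-1-10. They were chosen by name, with earlier results of these data known, from the 27615 genes listed for any library. Counts of them describe this list and do not test it. The genes fall into 4 groups by role. These are 14 centromere genes of the CENP series, 16 genes of the outer kinetochore and its linkers, 6 genes of the chromosomal passenger complex with the shugoshins, and 6 checkpoint genes. MDA-MB-231 is an established triple-negative breast cancer line. Rimonabant blocks the cannabinoid receptor CB1, and TXX-1-10 was made from rimonabant as the parent molecule. Each treatment has 3 libraries of polyadenylated RNA, 9 in all. Neither the dose nor the hours of treatment are given in the sources used here, and nothing states whether the libraries of a treatment came from separate cultures, so that p-values measure the spread between libraries, which may be technical. The question was how each compound, set against DMSO and against the other, changed the level of these genes.

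The kinetochore is the protein assembly that ties a chromosome to spindle microtubules in mitosis. It is built on centromeric chromatin that holds the histone variant CENP-A, through an inner layer of CENP proteins and an outer layer that grips the microtubule. The checkpoint proteins sit on kinetochores that are not yet attached and delay anaphase, and the chromosomal passenger complex corrects faulty attachments. Many of these genes are transcribed late in the cell cycle, so that their RNA is abundant in dividing cells and low in resting ones.

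Levels are given as FPKM, reads scaled to gene length and to a library size, as the authors deposited them. The library sizes that these values imply were 17078370 to 17245379 for vehicle, 17477838 to 18813662 for rimonabant and 18394759 to 19277808 for TXX-1-10. They are not plain sums of reads, since the listed counts of vehicle replicates 1 and 3 add up to more (17492638 and 17383157), and what they count is not given in the sources used here. The lists as used here end at different points of an order from high to low counts, and a gene missing from a list is not a gene at 0. The list of rimonabant replicate 1 held 14 of the 42 genes and that of vehicle replicate 2 held 41, while the other 7 held all 42. The tests therefore used the 8 libraries other than rimonabant replicate 1, in a single edgeR quasi-likelihood fit of 9369 genes that included 41 of the 42, and CENPP was tested in 7 libraries. The list of vehicle replicate 2 (9397 genes) was the shortest of these 8. Genes beyond its end, CENPP among them, entered neither the 41 nor the shares given for all genes. Rimonabant replicate 1 and TXX-1-10 replicate 3 stood apart. Set against the remaining replicates of the same treatment, long genes had fewer counts in both, with a Spearman rho across 4237 genes of -0.693 and -0.692. Under vehicle the line markers were detected, with VIM at 280 FPKM ± 5.31 (SD, n = 3) and CAV1 at 140 FPKM ± 5.13, while CDH1 was listed at 0 in 4 of 4 libraries that list it and ESR1 did not exceed 0.0314 FPKM. EPCAM, an epithelial marker counted among those low in this line, was at 4.47 to 5.37 FPKM in the 7 libraries that list it, and ERBB2 was at 9.4 FPKM ± 0.188 under vehicle. The treatments moved some of these markers, with CAV1 at 48.6 FPKM ± 1.3 under rimonabant and 21.6 ± 1.18 under TXX-1-10, and KRT18 at 74.8, 44.1 and 46.2 FPKM under vehicle, rimonabant and TXX-1-10. The leukocyte gene PTPRC did not exceed 0.0639 FPKM.

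Under TXX-1-10 the RNA of nearly all listed genes tested was lower. Relative to vehicle, 29 of the 41 genes tested (70.7%) fell at least 2-fold at an adjusted p under 0.05, against 7.39% of all genes tested. By that measure 0 of the 41 rose, and 495 of all 9369 genes tested did. By adjusted p alone, 39 of 41 were lower (all genes 40.6%) and 1, MAD1L1, was higher (all genes 34.7%), while MIS12 did not pass. The median log2 fold change of the 41 was -1.53, beside -0.04 for all genes, and single values ran from -2.44 for SPC24 to 0.60 for MAD1L1. The summed level of the 41 genes was 855 to 878 FPKM in the 3 vehicle libraries and 338 to 373 FPKM in the 3 TXX-1-10 libraries. RNA was taken from whole cultures, in which fewer cells in mitosis and less RNA per cell cannot be told apart. Without TXX-1-10 replicate 3, which stood apart, 31 of 41 genes fell at least 2-fold (all genes 7.72%) and the median was -1.53.

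**Figure D1:**
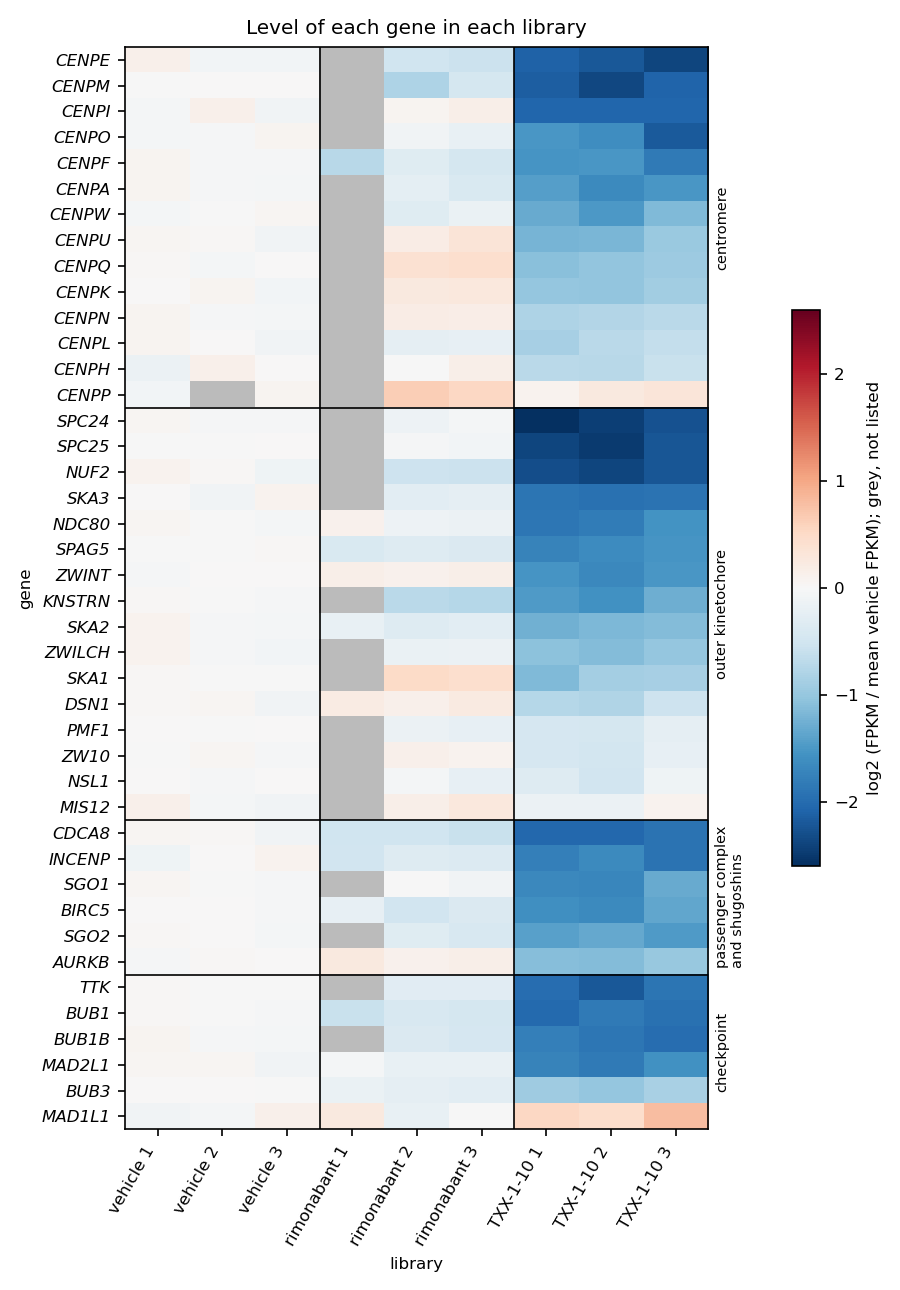
Level of the 42 genes (rows, by role) in the 9 libraries (columns), as the log2 ratio of FPKM to the mean of the vehicle libraries that list the gene, with blue lower, red higher and grey for a gene not listed. The TXX-1-10 columns are blue in nearly every row, with MAD1L1 and CENPP the rows in which all 3 are red, and the rimonabant columns are pale and of both colours.

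The cell cycle markers chosen for this line moved as well. Under TXX-1-10, 5 of 5 genes of G2 and M phase (MKI67, TOP2A, CCNB1, CDK1 and CCNA2) fell at least 2-fold (all genes 7.39%). Their median log2 fold change was -1.99, and their summed level went from 408 to 437 FPKM in the vehicle libraries to 95.4 to 101 FPKM. In the same libraries 4 of 4 genes of the G1/S transition (PCNA, MCM2, MCM5 and CCNE2) fell at least 2-fold (all genes 7.39%). These had a median of -1.38 and a summed level that went from 192 to 195 FPKM to 78.7 to 92.3 FPKM. Their part in the changes of the kinetochore genes was not tested.

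Promoter sequence is shown for 6 genes, 4 that fell and carry a cell cycle element close to the start and 2 that did not fall. The stretches are the 120 bases before a RefSeq transcription start (GRCh38.p14), read 5′ to 3′ on the strand of the gene. Capitals mark 3 motifs, searched on both strands. The cell cycle genes homology region (CHR) was read as TTTGAA or, in its other form, as TTCGAA. The second motif is the CCAAT box. The E2F site was read as TTCCCGC, with TTGGCGC as another form, then TTCGCGC as a further form and finally TTGCCGC. As background, the CHR is read by the MuvB complexes that repress mitotic genes in resting cells and activate them in G2, the CCAAT box by NF-Y, and the E2F site by the E2F factors. The motifs were chosen with the fold changes known, and a match of letters does not show that a factor binds.
CENPA, chr2:26785936-26786055, plus strand: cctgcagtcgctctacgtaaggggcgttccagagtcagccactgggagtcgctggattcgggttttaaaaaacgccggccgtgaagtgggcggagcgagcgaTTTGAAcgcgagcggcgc
CDCA8, chr1:37692396-37692515, plus strand: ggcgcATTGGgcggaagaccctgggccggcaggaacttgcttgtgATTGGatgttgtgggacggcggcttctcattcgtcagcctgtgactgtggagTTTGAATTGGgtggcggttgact
INCENP, chr11:62123891-62124010, plus strand: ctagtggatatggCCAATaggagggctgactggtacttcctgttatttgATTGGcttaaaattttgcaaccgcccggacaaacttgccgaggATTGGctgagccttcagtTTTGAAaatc
BUB1B, chr15:40160949-40161068, plus strand: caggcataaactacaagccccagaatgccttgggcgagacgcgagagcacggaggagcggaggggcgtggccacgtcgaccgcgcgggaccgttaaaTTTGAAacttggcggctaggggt
MIS12, chr17:5486254-5486373, plus strand: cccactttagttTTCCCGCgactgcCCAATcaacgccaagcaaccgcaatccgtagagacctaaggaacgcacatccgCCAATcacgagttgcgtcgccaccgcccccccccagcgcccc
MAD1L1, chr7:2232946-2233065, minus strand: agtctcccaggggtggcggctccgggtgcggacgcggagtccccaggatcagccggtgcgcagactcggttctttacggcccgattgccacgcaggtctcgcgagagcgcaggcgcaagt

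Counting the base before the start as -1, the CHR letters begin at -18 in CENPA, -23 in CDCA8, -10 in INCENP and -23 in BUB1B. In CDCA8 the CHR shares 1 base with an inverted CCAAT box that begins at -18. The stretch of MIS12 holds an E2F site and 2 CCAAT boxes but no CHR, and that of MAD1L1 holds none of the 3. The CENPA start lies 21767 bases inside the listed gene, and MIS12 has a second RefSeq start that is not shown.

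RefSeq windows of 250 bases before to 50 bases after the start were found for 36 of the 42 genes, not for CENPH, CENPL, CENPM, BUB3, TTK and BIRC5. The CHR letters were in 19 of the 36 (52.8%), against 19.5% of 27305 gene symbols, and within 40 bases before to 50 after the start in 18 of the 36, against 5.65% of symbols. The CCAAT box was in 23 (63.9% against 39.7%) and an E2F site in 12 (33.3% against 15.3%). The symbols are all those with a RefSeq window, tested here or not, so these shares are not over the 9369 genes tested. Under TXX-1-10, 40.6% of all genes tested passed adjusted p on the lower side. The 19 genes with a CHR had a median log2 fold change of -1.71, and 19 of them passed on that side. The 16 tested genes without one had a median of -1.07, and 14 passed on that side. The ranges overlapped, since SPC24, CENPE and CENPI, with log2 fold changes of -2.44, -2.23 and -2.06, had no CHR letters in the window. The RefSeq start of CENPI lies 2840 bases inside the listed gene. Those of SPC25, NUF2 and SGO2 lie 22941, 55378 and 16134 or 16199 bases inside. The listed starts of these genes were not searched. ZW10, whose CHR letters lie at -224, was at -0.37. For the CCAAT box and the E2F site the TXX-1-10 medians went the other way. The 22 tested genes with a CCAAT box had a median of -1.36, and the 13 without one -1.73. The 12 genes with an E2F site had a median of -1.07, and the 23 without one -1.62. Under rimonabant the 12 genes with an E2F site had a median log2 fold change of 0.13, with 4 higher and 3 lower by adjusted p, and the 23 without one had a median of -0.24, with 1 higher and 11 lower, where 23.7% of all genes were higher and 22.8% lower. For the CHR the rimonabant medians were -0.235 with and -0.092 without, and for the CCAAT box -0.123 and -0.14. These medians are descriptions and were not tested.

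**Figure D2:**
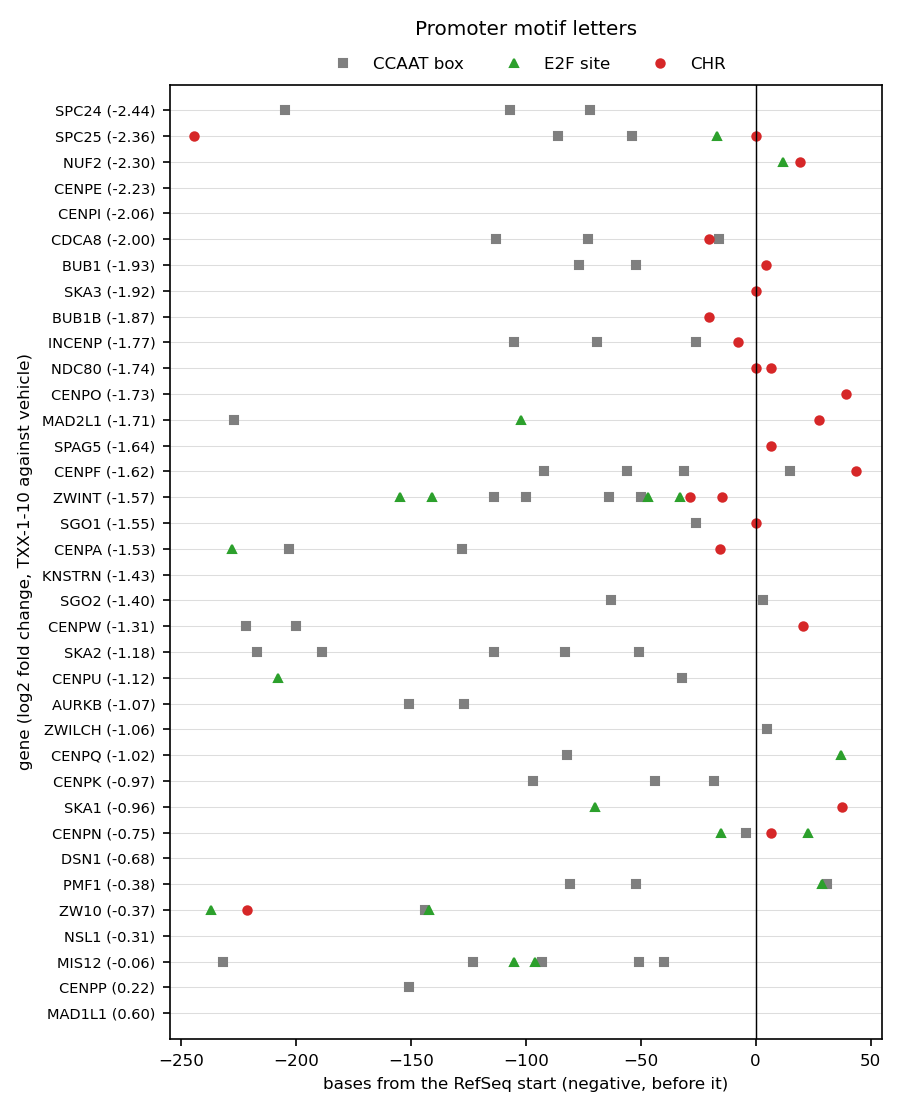
Positions of CHR letters (circles), E2F sites (triangles) and CCAAT boxes (squares) in bases from the RefSeq start, for the 36 genes with a promoter sequence, ordered from the lowest log2 fold change under TXX-1-10 (in brackets) to the highest; hits from several starts of a gene share its row. CHR letters gather around the start in the upper part of the plot, and MAD1L1, the lowest row, has none of the 3 motifs.

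CENPA, the histone H3 variant that marks the centromere, was lower under TXX-1-10. It lies at chr2:26764289-26801067 (GRCh38, ENSG00000115163) and was at 21.4, 19.9 and 19.6 FPKM in the vehicle libraries, 17.1 and 15.3 in rimonabant replicates 2 and 3, and 7.48, 6.44 and 7.10 under TXX-1-10. The 3 treatments did not overlap. The log2 fold change was -1.53 ± 0.08 (SE) under TXX-1-10 (adjusted p = 5.63e-09) and -0.32 ± 0.09 under rimonabant (adjusted p = 0.00832), and the compounds differed by -1.21 ± 0.09 (adjusted p = 2.89e-07). The rimonabant change rested on replicate 3, without which it did not pass.

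Of the 13 centromere genes tested, 13 were lower under TXX-1-10 by adjusted p (all genes 40.6%). Of them, 9 fell at least 2-fold (all genes 7.39%), and the median log2 fold change of the 13 was -1.31. CENPE, a kinesin that carries chromosomes along microtubules, fell most. Its level was 9.73, 8.56 and 8.54 FPKM under vehicle, 6.23 and 6.04 under rimonabant and 2.08, 1.94 and 1.70 with TXX-1-10, a fall of 4.68-fold (log2 -2.23 ± 0.08, adjusted p = 2.13e-10). CENPM, a subunit of the inner network that links CENP-A to the outer layer, went from 18.2, 18.5 and 18.6 FPKM under vehicle to 4.20, 3.58 and 4.34 under TXX-1-10 (log2 -2.19 ± 0.11, adjusted p = 2.31e-09), with 10.6 and 13.4 under rimonabant in between. Both genes stepped down from vehicle to rimonabant to TXX-1-10 with no overlap.

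The smallest fall among the tested centromere genes was that of CENPH, a partner of CENPM in the same subcomplex. It was at 6.58, 8.01 and 7.43 FPKM under vehicle, 7.25 and 8.13 under rimonabant and 4.51, 4.48 and 4.92 with TXX-1-10 (log2 -0.66 ± 0.10, adjusted p = 6.28e-05). Within the CENP-H, I, K and M subcomplex the log2 fold changes thus ran from -2.19 for CENPM to -0.66 for CENPH, with CENPI at -2.06 and CENPK at -0.97. The CENP-L and N pair was at -0.73 and -0.75. CENPO and the related CENPU and CENPQ were at -1.73, -1.12 and -1.02, and the 2-fold call of CENPQ was lost in 6 of the alternative analyses. CENPF, a large coiled-coil protein of the outer corona, fell by 1.62 on the log2 scale and CENPW, which has a histone fold, by 1.31. The exons of CENPO share 31.4% of their bases and those of CENPN 22.8% with other genes, and whether counting used strand is not given in the sources used here.

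CENPP, which belongs with CENPO, Q and U, was the weakest gene of the set and moved otherwise. It was listed in 7 libraries at 1.03 and 1.14 FPKM under vehicle (replicates 1 and 3), 1.70 and 1.57 under rimonabant and 1.16, 1.30 and 1.35 with TXX-1-10. The TXX-1-10 libraries lay just above those of vehicle and below those of rimonabant. In the fit of 7 libraries its log2 fold change was 0.22 ± 0.12 under TXX-1-10 (adjusted p = 0.115) and 0.59 ± 0.13 under rimonabant (adjusted p = 0.00434). It had 173 to 314 reads a library. Other genes cover 42.7% of its exonic bases, and how reads in those bases were counted is not given in the sources used here.

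**Figure D3:**
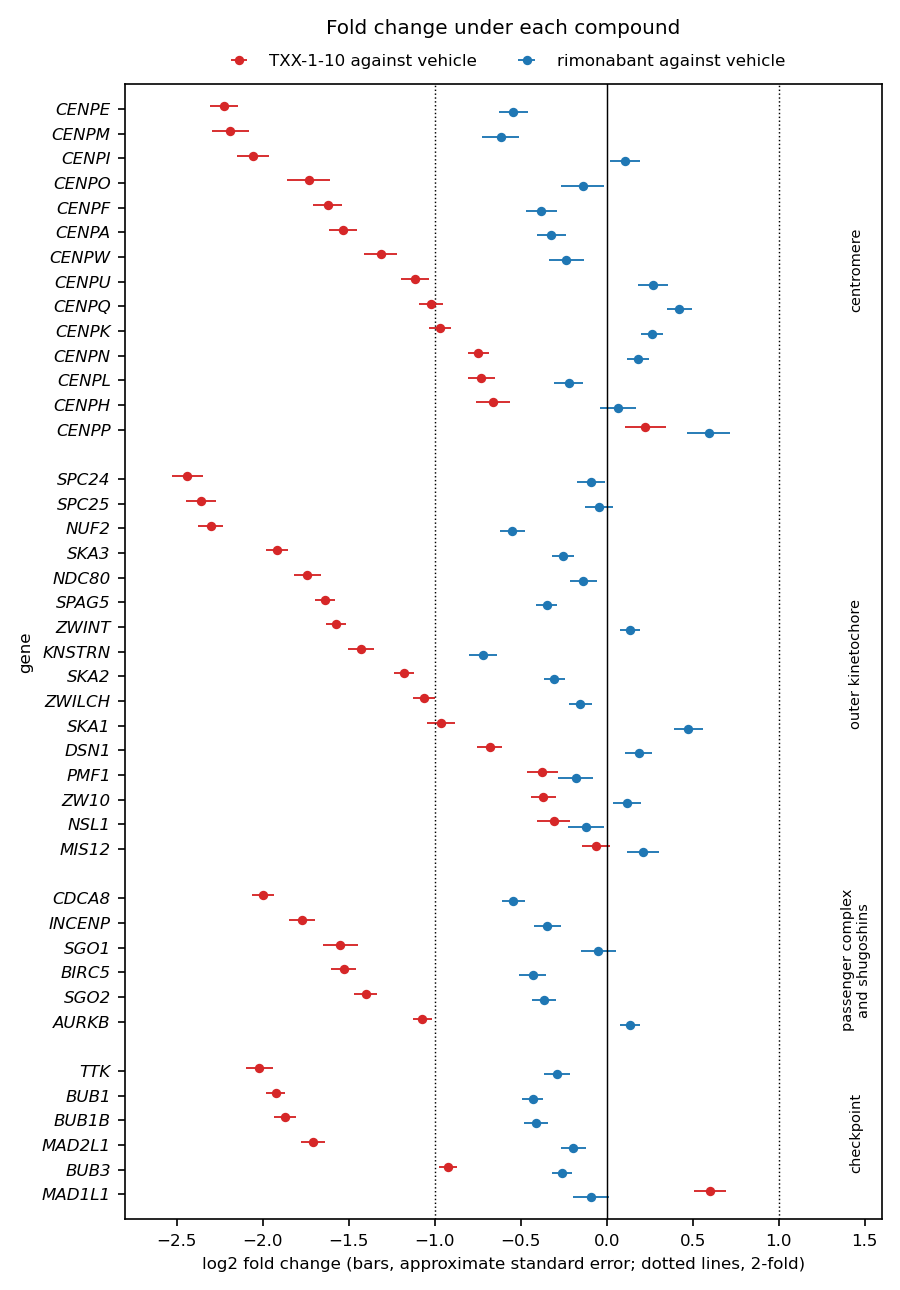
Log2 fold change against vehicle of the 42 genes under TXX-1-10 (red) and rimonabant (blue), with approximate standard errors from the edgeR fit of 8 libraries (7 for CENPP), ordered within each role and with dotted lines at 2-fold. Red points reach down to -2.44 at SPC24, while blue points stay between -0.72 and 0.59.

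The NDC80 and MIS12 complexes of the outer kinetochore differed in the size of their change. The 4 subunits of the NDC80 complex, the microtubule grip of the kinetochore, fell together, with log2 fold changes under TXX-1-10 from -2.44 for SPC24 to -1.74 for NDC80. The 4 subunits of the MIS12 complex, which anchors NDC80 to the inner layer, were between -0.68 for DSN1 and -0.06 for MIS12, and the ranges of the 2 complexes did not overlap. In all, 10 of 16 genes of this group fell at least 2-fold (all genes 7.39%). By adjusted p 15 of 16 were lower (all genes 40.6%), and the median was -1.31.

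SPC24, at chr19:11131520-11155808 (ENSG00000161888), had the largest fall of the set. Its level was 15.9, 15.1 and 15.2 FPKM under vehicle, 14.1 and 14.8 under rimonabant and 2.47, 2.83 and 3.21 with TXX-1-10, or 5.42-fold lower (log2 -2.44 ± 0.09, adjusted p = 2.13e-10). SPC25, with which it pairs at the inner end of the NDC80 rod, went from 16.0, 15.9 and 16.1 FPKM to 3.07, 2.83 and 3.42 (log2 -2.36 ± 0.09, adjusted p = 2.24e-10), and its 15.7 and 15.2 under rimonabant stayed close to vehicle. For both, rimonabant against vehicle did not pass (log2 -0.09 ± 0.08 and -0.05 ± 0.08), and the compounds differed from each other by -2.35 and -2.31. NUF2, at the microtubule end of the rod, fell under both, by 2.30 under TXX-1-10 and by 0.55 under rimonabant on the log2 scale.

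NDC80 itself (chr18:2571511-2616635, ENSG00000080986) was listed in all 9 libraries. It was at 22.1, 21.4 and 20.7 FPKM under vehicle, 23.0, 19.6 and 19.3 under rimonabant and 5.84, 6.09 and 7.29 with TXX-1-10. The rimonabant and vehicle libraries overlapped and those of TXX-1-10 lay below both. The log2 fold change was -1.74 ± 0.08 under TXX-1-10 (adjusted p = 1.1e-09) and -0.14 ± 0.08 under rimonabant (adjusted p = 0.177).

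MIS12 did not pass under TXX-1-10. This gene (chr17:5486285-5490814, ENSG00000167842) was at 18.8, 16.6 and 16.2 FPKM under vehicle, 19.1 and 20.8 under rimonabant and 15.4, 15.6 and 18.4 with TXX-1-10, and the vehicle and TXX-1-10 libraries overlapped. Its log2 fold change was -0.06 ± 0.08 (adjusted p = 0.496), -0.15 without TXX-1-10 replicate 3, when it did pass, and 0.003 without vehicle replicate 1. The ratio of MIS12 to NDC80, both per length, was 0.805 ± 0.0402 under vehicle (SD, n = 3), 1.02 ± 0.0729 under rimonabant (n = 2) and 2.58 ± 0.0615 under TXX-1-10 (n = 3), with no overlap between treatments. PMF1 and NSL1, the remaining subunits, were at -0.38 and -0.31 and passed adjusted p (0.00229 and 0.0108), but did not pass between the compounds (adjusted p = 0.115 and 0.143) unless TXX-1-10 replicate 3 was left out. The overlapping PMF1-BGLAP gene covers 23.3% of the exonic bases of PMF1.

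The SKA complex, which follows shortening microtubules together with NDC80, fell unevenly, with log2 fold changes of -1.92 for SKA3, -1.18 for SKA2 and -0.96 for SKA1. ZWINT, a partner of the scaffold KNL1 and the most abundant gene of the set, was at 79.9, 82.6 and 81.9 FPKM under vehicle and 28.0, 25.3 and 28.7 under TXX-1-10 (log2 -1.57 ± 0.06). ZW10 and ZWILCH, of the complex that recruits dynein, were at -0.37 and -1.06. SPAG5 and KNSTRN, which form the astrin complex at attached kinetochores, were at -1.64 and -1.43.

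**Figure D4:**
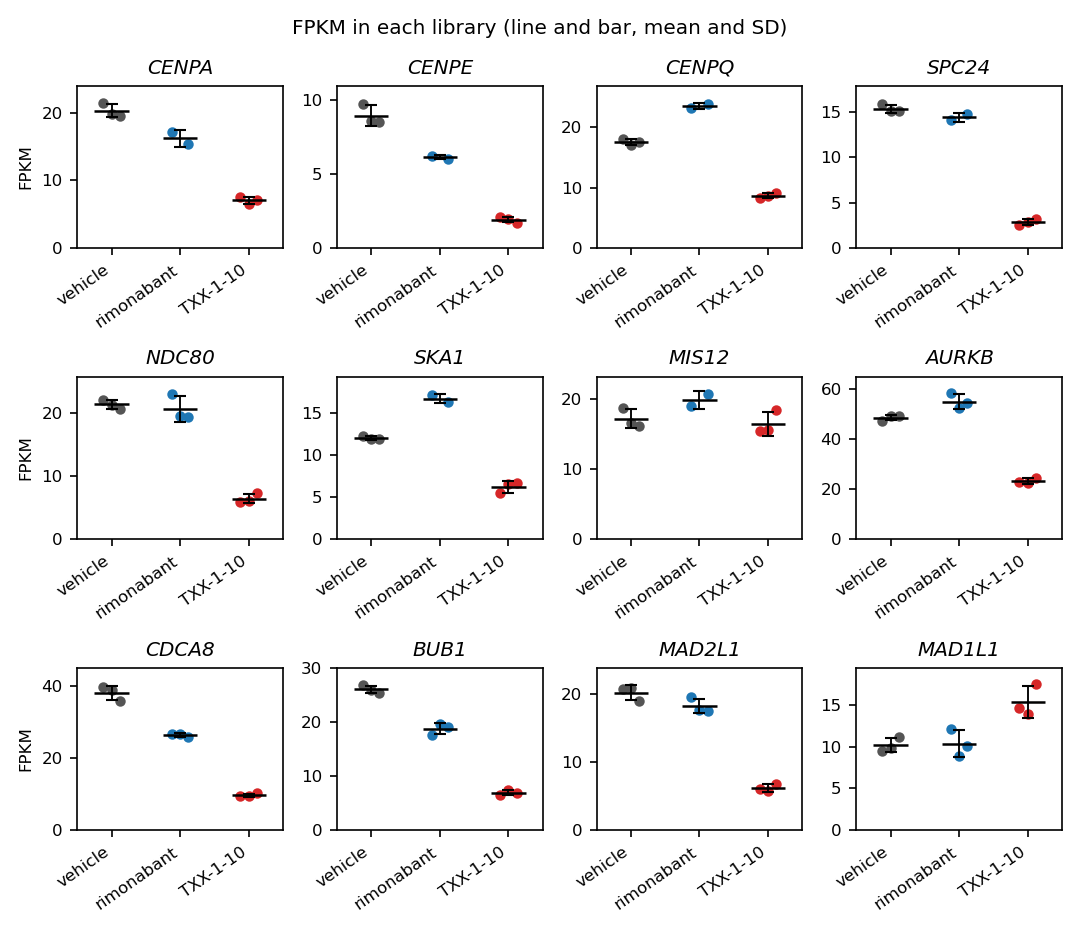
FPKM of 12 genes in each library (points; 2 rimonabant libraries where replicate 1 does not list the gene), with the mean and SD of each treatment as line and bar and the axis starting at 0. TXX-1-10 points lie below the others in 10 panels, overlap vehicle for MIS12 and lie above for MAD1L1.

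In the chromosomal passenger complex and the shugoshins, 6 of 6 genes fell at least 2-fold under TXX-1-10 (all genes 7.39%). Their median log2 fold change was -1.54. CDCA8 (borealin), which targets the complex to centromeres, was at 39.5, 38.8 and 35.8 FPKM under vehicle, 26.4, 26.6 and 25.6 under rimonabant and 9.27, 9.25 and 10.1 with TXX-1-10. Each treatment lay apart from the next, with log2 values of -2.00 ± 0.06 for TXX-1-10 (adjusted p = 6.86e-11) and -0.54 ± 0.07 under rimonabant (adjusted p = 5.21e-05). INCENP, the scaffold of the complex, had 22.0, 24.1 and 25.2 FPKM under vehicle, 16.8, 18.9 and 18.6 under rimonabant and 6.98, 7.60 and 6.28 with TXX-1-10 (log2 -1.77 ± 0.07, adjusted p = 6.98e-10). BIRC5 (survivin) fell by 1.53, and SGO1 and SGO2, which protect centromeric cohesin, by 1.55 and 1.40. CDCA8, INCENP and CENPA are among the promoters printed above with CHR letters just before the start.

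AURKB, the kinase of the complex, had its smallest fall. This gene (chr17:8204733-8210600, ENSG00000178999) was at 47.3, 49.2 and 49.0 FPKM under vehicle, 58.1, 52.3 and 54.2 under rimonabant and 22.6, 22.3 and 24.3 with TXX-1-10. Rimonabant libraries lay above vehicle and TXX-1-10 libraries below. The log2 fold change was -1.07 ± 0.05 under TXX-1-10 (adjusted p = 3.24e-09), -0.98 with a correction for gene length, and 0.13 ± 0.06 under rimonabant (adjusted p = 0.0746). With rimonabant replicate 1 included the rimonabant value was 0.18 and passed (adjusted p = 0.0225). Of the other subunits, INCENP (-0.35), CDCA8 (-0.54) and BIRC5 (-0.43) were lower by adjusted p under rimonabant.

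Among the checkpoint genes, 4 of 6 fell at least 2-fold under TXX-1-10 (all genes 7.39%) and the median log2 fold change was -1.79. TTK, the kinase MPS1 that starts checkpoint signalling, was at 12.4, 12.1 and 12.1 FPKM under vehicle, 9.98 and 9.95 under rimonabant and 3.07, 2.66 and 3.29 with TXX-1-10 (log2 -2.02 ± 0.08, adjusted p = 2.6e-10). BUB1 (chr2:110637698-110678114, ENSG00000169679), a kinase that gathers the other checkpoint proteins, was at 26.8, 26.0 and 25.5 FPKM under vehicle, 17.6, 19.6 and 19.1 under rimonabant and 6.47, 7.34 and 6.83 with TXX-1-10. The change of BUB1 on the log2 scale was -1.93 ± 0.06 under TXX-1-10 (adjusted p = 3.95e-11) and -0.43 ± 0.06 under rimonabant (adjusted p = 0.000153). The treatments did not overlap for either gene. BUB1B (BUBR1), part of the inhibitor of the anaphase-promoting complex, fell by 1.87, and BUB3, which carries both BUB proteins to the kinetochore, by 0.92, from 48.5 to 49.1 FPKM under vehicle to 24.5 to 27.1. A readthrough gene, BUB1B-PAK6, covers 10.2% of the exonic bases of BUB1B.

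MAD2L1 and MAD1L1, whose products bind each other at unattached kinetochores, moved in opposite directions under TXX-1-10. MAD2L1 (chr4:120055608-120067074, ENSG00000164109) was at 20.7, 20.8 and 18.9 FPKM under vehicle, 19.4, 17.6 and 17.5 under rimonabant and 6.05, 5.66 and 6.75 with TXX-1-10 (log2 -1.71 ± 0.07, adjusted p = 5.21e-10). MAD1L1 (chr7:1815793-2233243, ENSG00000002822) was at 9.50, 9.83 and 11.1 FPKM under vehicle, 12.1, 8.93 and 10.1 under rimonabant and 14.7, 13.9 and 17.6 with TXX-1-10. The TXX-1-10 libraries lay above every other library for MAD1L1 and below every other for MAD2L1. MAD1L1 rose by 0.60 ± 0.09 on the log2 scale (adjusted p = 6.75e-05), or 1.52-fold, and by 0.49 without TXX-1-10 replicate 3, and it was higher than under rimonabant by 0.69 ± 0.10 (adjusted p = 0.000105). The ratio of MAD1L1 to MAD2L1 was 0.507 ± 0.0714 under vehicle, 0.568 ± 0.0575 under rimonabant and 2.49 ± 0.0957 under TXX-1-10 (SD, n = 3 each).

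**Figure D5:**
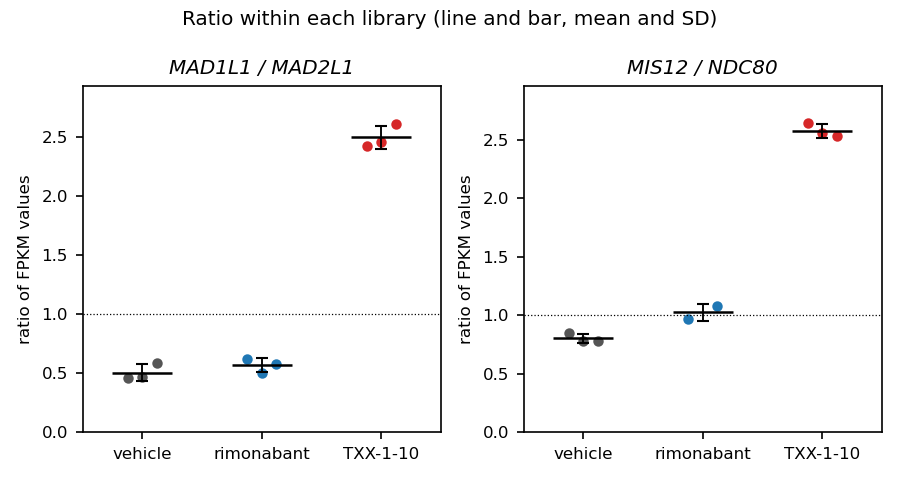
Ratio of FPKM values within each library for MAD1L1 to MAD2L1 (left) and MIS12 to NDC80 (right), with points for libraries, the mean and SD as line and bar, and a dotted line at 1. The TXX-1-10 libraries sit at 2.42 to 2.6 on the left and 2.53 to 2.65 on the right, above the other libraries.

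Rimonabant changed the same genes little and in both directions. Relative to vehicle, 0 of 41 passed the 2-fold threshold in either direction, by edgeR, DESeq2 or limma, since no fold change reached 2 at any p. In edgeR 0.758% of all genes were lower by that measure, and 69 of the 9369 were higher. By adjusted p alone 19 (46.3%) were lower, against 22.8% of all genes, and 5 (12.2%) higher, against 23.7%. The median log2 fold change was -0.18, beside 0.00 for all genes, and values ran from -0.72 for KNSTRN to 0.47 for SKA1. The summed level was 783 and 792 FPKM in the 2 rimonabant libraries. With 2 libraries these calls depended on each of them. Without rimonabant replicate 3, 14 were lower and 2 higher, and without vehicle replicate 3, 19 and 3. Without TXX-1-10 replicate 3, which leaves the values as they were and changes the estimated spread, 22 were lower and 9 higher. With rimonabant replicate 1 included, 8 of the 14 genes it lists were lower and 3 (DSN1, ZWINT and AURKB) higher.

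By role, 5 of 6 checkpoint genes and 4 of 6 of the passenger group were lower by adjusted p under rimonabant, and 0 of either group were higher, beside 22.8% and 23.7% of all genes. Of 13 centromere genes, 5 (38.5%) were lower (CENPA, CENPE, CENPF, CENPL and CENPM) and 4 (30.8%) higher (CENPK, CENPN, CENPQ and CENPU), and the outer kinetochore had 5 lower (NUF2, SKA2, SKA3, SPAG5 and KNSTRN) and 1 higher (SKA1). KNSTRN was the one most lowered, from 19.4, 18.8 and 18.6 FPKM to 11.6 and 11.4 (log2 -0.72 ± 0.08, adjusted p = 3.06e-05), and its 6.81, 6.37 and 7.90 FPKM under TXX-1-10 were lower again. MAD2L1 passed only just (log2 -0.20 ± 0.07, adjusted p = 0.0448) and lost the call in 10 of 20 alternative analyses, as CENPL did in 8 of 19 and CENPN in 6 of 19.

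The 5 genes that were higher under rimonabant were lower under TXX-1-10, as were 39 of the 41 genes tested. SKA1 had 12.3, 11.9 and 11.8 FPKM under vehicle, 17.1 and 16.3 under rimonabant and 5.40, 6.47 and 6.63 with TXX-1-10, log2 fold changes of 0.47 ± 0.08 (adjusted p = 0.000686) and -0.96 ± 0.08 (adjusted p = 3.44e-07). CENPQ had 18.1, 17.1 and 17.6 FPKM under vehicle, 23.2 and 23.9 under rimonabant and 8.26, 8.59 and 9.12 with TXX-1-10, or 0.42 ± 0.07 (adjusted p = 0.000598) and -1.02 ± 0.07 (adjusted p = 5.85e-08). The rimonabant libraries lay above vehicle and the TXX-1-10 libraries below for both. CENPK, CENPU and CENPN were at 0.26, 0.27 and 0.18 under rimonabant and at -0.97, -1.12 and -0.75 under TXX-1-10. The 4 G1/S markers did not move as one under rimonabant, where PCNA (0.36) and CCNE2 (0.71) were higher, MCM5 (-0.31) was lower and MCM2 (-0.16) did not pass, with a median of 0.10. Their part in the values of the kinetochore genes was not tested. The summed G2 and M markers were at 297 to 310 FPKM under rimonabant, below vehicle. Of these CCNB1 (log2 -0.998), TOP2A (-0.405) and CCNA2 (-0.395) were lower by adjusted p, while MKI67 (-0.206) and CDK1 (-0.107) did not pass. The summed G1/S markers, mostly PCNA, were at 226 to 228 FPKM.

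Set directly against rimonabant, TXX-1-10 lowered 28 of 41 genes (68.3%) at least 2-fold, compared with 4.31% of all genes tested. By adjusted p alone 38 were lower (all genes 33.9%) and 1, MAD1L1, higher (all genes 26.7%), with PMF1 and NSL1 not passing. Both passed without TXX-1-10 replicate 3, when 40 were lower. The median log2 difference was -1.29, beside -0.04 for all genes. In 13 genes the compounds went to opposite sides of vehicle and the difference between them passed: CENPH, CENPI, CENPK, CENPN, CENPQ, CENPU, SKA1, DSN1, MIS12, ZWINT, ZW10, MAD1L1 and AURKB. How many of all genes tested share this pattern was not counted, so the 13 have no background to be set against. Since 40 of the 41 were below 0 under TXX-1-10, the 13 are the 12 genes above 0 under rimonabant together with MAD1L1. The pattern thus follows from the general fall under TXX-1-10 and is not a separate result. For MAD1L1, CENPH and MIS12 one side rested on a value that did not pass and changed sign in an alternative, to 0.031 for MAD1L1 under rimonabant with 9 libraries, to -0.018 for CENPH under rimonabant and to 0.003 for MIS12 under TXX-1-10, and the MIS12 difference was lost in 3 of 19 alternatives. Of the 13, 5 passed against vehicle on both sides, and they are the 5 that rimonabant raised. Among the 13, CENPI was the widest apart, at 6.11 and 6.46 FPKM under rimonabant and 1.41, 1.40 and 1.40 with TXX-1-10 (log2 -2.17 ± 0.10, adjusted p = 4.83e-09), with 5.62, 6.37 and 5.5 under vehicle.

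The wider machinery was followed with a list of 36 other genes of the centromere, checkpoint, cohesin and anaphase, of which 34 were tested. Under TXX-1-10 10 of 34 fell at least 2-fold, 26 were lower and 4 higher by adjusted p (all genes 7.39%, 40.6% and 34.7%), and the median log2 fold change was -0.64, closer to all genes than that of the 41. CDC20, the activator of the anaphase-promoting complex that the checkpoint holds back, fell most, from 128 FPKM ± 4.89 to 25.3 ± 1.97 (SD, n = 3; log2 -2.34 ± 0.06, adjusted p = 2.25e-11). NDEL1, a dynein regulator, rose most, from 8.46 FPKM ± 0.418 to 14.1 ± 0.171 (log2 0.73 ± 0.05, adjusted p = 7.06e-08). Under rimonabant 13 of the 34 were lower and 3 higher by adjusted p (all genes 22.8% and 23.7%), and CDC20 alone passed 2-fold, at 57.2, 50.8 and 53.3 FPKM (log2 -1.30 ± 0.07, adjusted p = 1.08e-07).

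Under vehicle the 42 genes ran from 1.09 FPKM for CENPP to 81.5 for ZWINT, with a median of 17.5 FPKM. Set beside the length and level of the 41 tested genes, Spearman's rho of the TXX-1-10 log2 fold change was -0.06 with gene length and -0.21 with the vehicle level, and for rimonabant it was -0.34 and -0.29. These are descriptions over genes that share libraries and depth, and genes are not replicates.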

How the data were processed

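The submitters' processing notes name HISAT2 2.0.5 and featureCounts 1.5.0-p3, and the study describes oligo(dT) selection, NEBNext Ultra libraries and expression values from uniquely mapped exonic reads. For each gene of each library the authors deposited a whole-number count, without normalization, and the FPKM value they made from that count, gene length and a library size. That size (17078370 to 19277808) was recovered from the 3 and used in the tests. It is below the sum of the listed counts in vehicle replicates 1 and 3, so it is not the number of counted reads. All 27615 genes are in GENCODE 29 (GRCh38), 27612 of them with the same start and end. All 9 lists end partway through a line, and that last line was left out.

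Testing in edgeR 4.0.16 (R 4.3.3; estimateDisp, glmQLFit, glmQLFTest) covered genes whose mean FPKM reached 1, with Benjamini-Hochberg adjustment over the 9369 genes of each comparison, and a gene was called at a change of 1 or more on the log2 scale, in either direction, together with an adjusted p under 0.05. The common biological coefficient of variation was 0.0604. Standard errors, the log2 fold change over the square root of F, are approximate. On simulated counts for TXX-1-10 against vehicle, 200 of 200 changed genes were recovered, of 9369 simulated, with 0 false calls among the rest. The changed genes had a median absolute log2 fold change of 1.58, past the threshold. The simulated libraries had the same spread for every gene and no trend with gene length. The check therefore shows that the fit works on such counts, not how it does on these libraries. The chi-square per degree of freedom between replicates was 2.29 to 42.2, so none were counted as 1 sample.

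The genes and lists were chosen with earlier results of these data known. Values in every library are given for CENPA, NDC80, AURKB, BUB1 and MAD2L1, for the 2 largest falls and the smallest fall or the rise of each group, for genes that did not pass or rose under TXX-1-10, and for genes in fewer than 8 lists. The same rule covered the 13 genes with opposite directions under the compounds and a difference past adjusted p. Of these, CENPK, CENPN, CENPU, DSN1 and ZW10 are given by fold change alone, and ZWINT without its rimonabant libraries. KNSTRN and BUB3 are described beyond that rule, after their values were seen. Alternatives were TMM, DESeq2 1.42.0, limma 3.58.1 on log2(FPKM + 1) and log2(FPKM + 0.1), other filters and sets of libraries, the replicate number as a block, a lowess correction for gene length (span 0.3) and each library left out.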

Additional observations from a re-analysis of the deposited data

How the results depend on the processing

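Over the alternatives with 41 genes and at least 2 libraries in each group, 27 to 31 fell at least 2-fold under TXX-1-10. For rimonabant it was 0, and between the compounds 27 to 28. The shares of all genes were 5.44% to 7.72%, 0.491% to 0.788% and 3.13% to 4.41%. With 9 libraries, which hold 14 of the genes, 11 fell under TXX-1-10, 0 under rimonabant and 10 between the compounds (all genes 7.6%, 0.614% and 4.34%). With no fold threshold 39, 19 and 38 were lower (all genes 40.6%, 22.8% and 33.9%). The median log2 fold change under TXX-1-10 was -1.316 with limma on log2(FPKM + 1), whose pseudocount shrinks changes of low genes, -1.424 with the length correction and -1.425 with that correction and the replicate block. Between the compounds it was -1.197 with limma on log2(FPKM + 1). Leaving out 1 library at a time gave medians of -1.544 to -1.471 under TXX-1-10, -0.201 to -0.171 under rimonabant and -1.341 to -1.269 between them.

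Of single genes, 4 results changed sign, with 6 such values in all, each for a change that did not pass. Under rimonabant SPC25 was at 0.011 with the length correction and 0.013 with the correction and the block, and MAD1L1 at 0.031 with 9 libraries. With single libraries left out CENPH under rimonabant ranged from -0.018 to 0.148 and MIS12 under TXX-1-10 from -0.153 to 0.003. The 2-fold call of CENPQ under TXX-1-10 was lost in 6 alternatives (-0.99 to -0.90). AURKB lost it in 2 (-0.978) and ZWILCH in 1 (-0.949), while CENPK gained it in 2 (-1.012 and -1.01) and SKA1 in 1 (-1.018). Between the compounds CENPW lost it in 1 (-0.996). SGO2 lost it there with TMM (-0.984), DESeq2 (-0.989) and limma on log2(FPKM + 1) (-0.855), among others. The sign held in each.

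Replicate numbers did not pair the libraries. The departures from the group mean of libraries with the same number correlated at -0.09 to 0.04 with vehicle, and at -0.79, 0.80 and -0.59 between the compounds. With the replicate block 29, 0 and 28 genes fell at least 2-fold (all genes 7.4%, 0.747% and 4.34%). By adjusted p 17 were then lower and 5 higher under rimonabant, where without the block 22.8% and 23.7% of all genes were. No dose, time or culture is known, and genes beyond the end of a list were not analysed here.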

Other observations

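Genes around the kinetochore that are described here were picked after their values were seen, from the list of 36 other genes. HJURP, the chaperone that loads CENP-A, was at 36.1, 36.1 and 34.4 FPKM under vehicle and at 8.81, 8.79 and 8.72 with TXX-1-10, a log2 fold change of -2.02 ± 0.05 (SE; adjusted p = 1.94e-11 by edgeR). TRIP13, the ATPase that takes the MAD2 complex apart, was at -2.25 under TXX-1-10 and -0.55 under rimonabant, both past adjusted p. The CENP genes of that list fell less under TXX-1-10. CENPB (-0.33), CENPC (-0.59), CENPV (-0.645) and CENPX (-0.77) were lower by adjusted p but under 2-fold. CENPT (-0.11) did not pass, and CENPS was not tested.

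Cohesin subunits did not move as one. Under TXX-1-10 the core genes SMC1A, SMC3 and RAD21 were lower, at -0.78, -0.64 and -0.67, and STAG1 was higher, at 0.42. STAG1 was also higher under rimonabant (0.56 ± 0.08, adjusted p = 0.000125), at 8.98 and 9.52 FPKM against 5.95, 6.48 and 6.33 under vehicle. STAG2, the alternative subunit, did not pass under TXX-1-10 (0.07, adjusted p = 0.335) or under rimonabant (0.03, adjusted p = 0.706).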
